A study of Mus musculus with 12 samples.

Results

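RNA-seq of mouse periocular skin was examined for 10 genes of MHC class I antigen presentation, namely *H2-K1*, *H2-D1*, *B2m*, *Tap1*, *Tap2*, *Tapbp*, *Psmb8*, *Psmb9*, *Psmb10* and *Nlrc5*. They were chosen by name, and all 10 were found among the 21247 gene names of the deposited count table. The table held 4 libraries labelled ft/ft and 4 labelled ft/ftMyD88-/-, which were compared, while the 4 WT samples in the labels were not analysed here. ft/ft mice are homozygous for a point mutation that arose spontaneously and inactivates filaggrin, the protein that bundles keratin filaments in the outer epidermis, and the *ma* mutation of the original flaky tail strain had been bred out. ft/ftMyD88-/- mice carry the same filaggrin mutation and also lack MyD88, the adaptor of Toll-like and interleukin-1 receptors, in every cell. Both groups were on a BALB/c background and were sampled at 6 weeks of age, and the labels name no treatment for either. The question put to these genes was whether the skin of filaggrin-deficient mice without MyD88 held other levels of the class I machinery than the skin of filaggrin-deficient mice with it.

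MHC class I molecules display peptides from inside the cell to CD8+ T cells and are read by inhibitory receptors of natural killer cells. Proteasomes cut cytosolic proteins into peptides, with the subunits *Psmb8*, *Psmb9* and *Psmb10* replacing the catalytic subunits *Psmb5*, *Psmb6* and *Psmb7* in the immunoproteasome. The transporter made of *Tap1* and *Tap2* carries the peptides into the endoplasmic reticulum, where tapasin (*Tapbp*) holds the transporter to empty class I molecules, each a heavy chain (*H2-K1* or *H2-D1*) paired with beta-2 microglobulin (*B2m*). *Nlrc5* is the transactivator of these genes, which also respond to interferon gamma, and in skin they are used by keratinocytes, fibroblasts, endothelium and leukocytes alike.

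Library totals ran from 15802957 to 29255129 counts. *Myd88*, the targeted gene, had no lower level under the knockout label. It stood at 30.7 ± 4.74 CPM (counts scaled to a common library size after TMM normalization, SD, n = 4) in ft/ft and 41.2 ± 7.29 CPM in ft/ftMyD88-/- (log2 fold change 0.42, edgeR adjusted p = 0.0484). A total over the whole gene cannot tell whether the deleted exons were read, so the knockout labels are left unchecked by it, and every direction below rests on those labels. The paper and the design text of the series describe the mice as female. *Uty*, a gene of the Y chromosome, was nevertheless read at 349 to 539 counts in each library labelled ft/ft. It had at most 3 counts in those labelled ft/ftMyD88-/-, at least 145-fold lower there. *Xist*, the transcript that silences the second X chromosome of females, was at least 380-fold higher in ft/ftMyD88-/-. Genotype and sex can therefore not be told apart in any difference between the groups. The labels name separate replicates, and the paper describes each library as coming from its own mouse.

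The members map to 3 chromosomes of GRCm38.p6. Of the 10, 7 lie in the MHC region of chromosome 17, in the order *Tapbp* (33919478 to 33929290), *H2-K1* (33996012 to 34000619), *Psmb9* (34182030 to 34187330), *Tap1* (34187556 to 34197225), *Psmb8* (34198195 to 34201454), *Tap2* (34204479 to 34216321) and *H2-D1* (35263094 to 35267497). *B2m* is on chromosome 2 (122147687 to 122153082), and *Psmb10* (105935728 to 105938392) and *Nlrc5* (94434335 to 94527272) are on chromosome 8. RefSeq promoter windows of this build were matched by symbol for 8 members, and *Tap2* and *Nlrc5* had none. The following sequences are shown because the ratio of heavy to light chain set the groups apart below, and because *Tap1*, which was called, and *Psmb9*, which was not, start from either end of one short interval. Each is written 5′ to 3′ on the strand of the first gene named, from the C57BL/6J reference and not from these BALB/c mice, and capitals mark 4 motifs on either strand, the NF-kappa B type site (GGG, any 2 bases, TTCCC), TTTCNNTT (the core of an interferon-stimulated response element), TGACG (the core of a cyclic AMP response element) and CCAAT, whose matches do not overlap in the stretches shown.
H2-D1, the 250 bases before its start, chr17:35262844-35263093, plus strand: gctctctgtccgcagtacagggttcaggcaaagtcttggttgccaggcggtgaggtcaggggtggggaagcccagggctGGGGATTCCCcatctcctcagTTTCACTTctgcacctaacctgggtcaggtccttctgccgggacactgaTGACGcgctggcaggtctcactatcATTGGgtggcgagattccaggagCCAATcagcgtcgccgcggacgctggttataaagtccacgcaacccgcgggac
B2m, the 250 bases before its start, chr2:122147437-122147686, plus strand: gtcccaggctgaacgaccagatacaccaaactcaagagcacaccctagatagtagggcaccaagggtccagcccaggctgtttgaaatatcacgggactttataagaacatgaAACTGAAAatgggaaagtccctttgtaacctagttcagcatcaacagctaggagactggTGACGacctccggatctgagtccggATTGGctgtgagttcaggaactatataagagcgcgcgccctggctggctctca
Tap1 and Psmb9, the 225 bases between their starts, chr17:34187331-34187555, plus strand: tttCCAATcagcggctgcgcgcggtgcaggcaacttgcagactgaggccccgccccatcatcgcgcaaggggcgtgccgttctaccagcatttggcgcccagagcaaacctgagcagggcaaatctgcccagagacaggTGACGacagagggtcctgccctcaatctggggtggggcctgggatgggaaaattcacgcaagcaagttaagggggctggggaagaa

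*H2-D1* and *B2m* both held TTTCNNTT, TGACG and CCAAT in these stretches, and *H2-D1* also held the NF-kappa B type site. Both classical heavy chain genes carried that site and TTTCNNTT next to each other, in the stretch known as class I enhancer A with its response element. The pair is shown because both genes carry these motifs. They are promoter stretches, and how alike the transcripts of both genes are was not measured here.
H2-K1, chr17:34000429-34000458, minus strand: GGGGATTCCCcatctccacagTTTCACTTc
H2-D1, chr17:35262923-35262952, plus strand: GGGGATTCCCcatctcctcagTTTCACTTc

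The stretches were identical at 29 of 30 bases, with A18T from *H2-K1* to *H2-D1*, counted from the first base shown. Across windows of 300 bases, the NF-kappa B type site was found in 2 of the 8 members with a window against 1.75% of 32851 windows of all genes. TGACG was found in 5 members (20.8% of all windows), CCAAT in 6 (37.4%) and TTTCNNTT in 3 (23.9%). The windows of *Tap1* and *Psmb9* overlap, so the same TGACG and the same CCAAT count for both. The 2 members with the NF-kappa B type site are *H2-K1* and *H2-D1*, whose stretches are nearly the same. These counts are therefore not of independent genes. A member was counted if any of its windows held the motif, whereas the percentages are of single windows. The windows of *Psmb8* and *Psmb10* held none of the 4. A match is a run of letters and was not tested for binding.

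In the comparison of ft/ftMyD88-/- with ft/ft, 4 of the 10 members were lower in the libraries labelled ft/ftMyD88-/- and 0 were higher (edgeR quasi-likelihood test, Benjamini-Hochberg adjusted p under 0.05 over all genes tested). Over all 20454 genes tested, 12.3% were lower and 10.9% were higher, 23.3% in all. The 4 were *Tapbp*, *Tap2*, *B2m* and *Tap1*, the transcripts of tapasin, of both transporter subunits and of the light chain, at fitted folds between 0.706 and 0.836. All levels here are of RNA, and neither protein nor peptide transport was measured here. The heavy chains, the 3 immunoproteasome subunits and *Nlrc5* did not pass the test. No further member had an unadjusted p under 0.05. DESeq2 and limma voom also called 0 members higher and 4 lower. Over all 20454 genes, DESeq2 called 2865 higher and 2777 lower, and limma voom 2193 higher and 2490 lower. The median log2 fold change of the members was −0.18, beside 0.01 over all genes. In bulk skin, fewer cells of a type and less RNA per cell cannot be told apart.

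**Figure D1:**
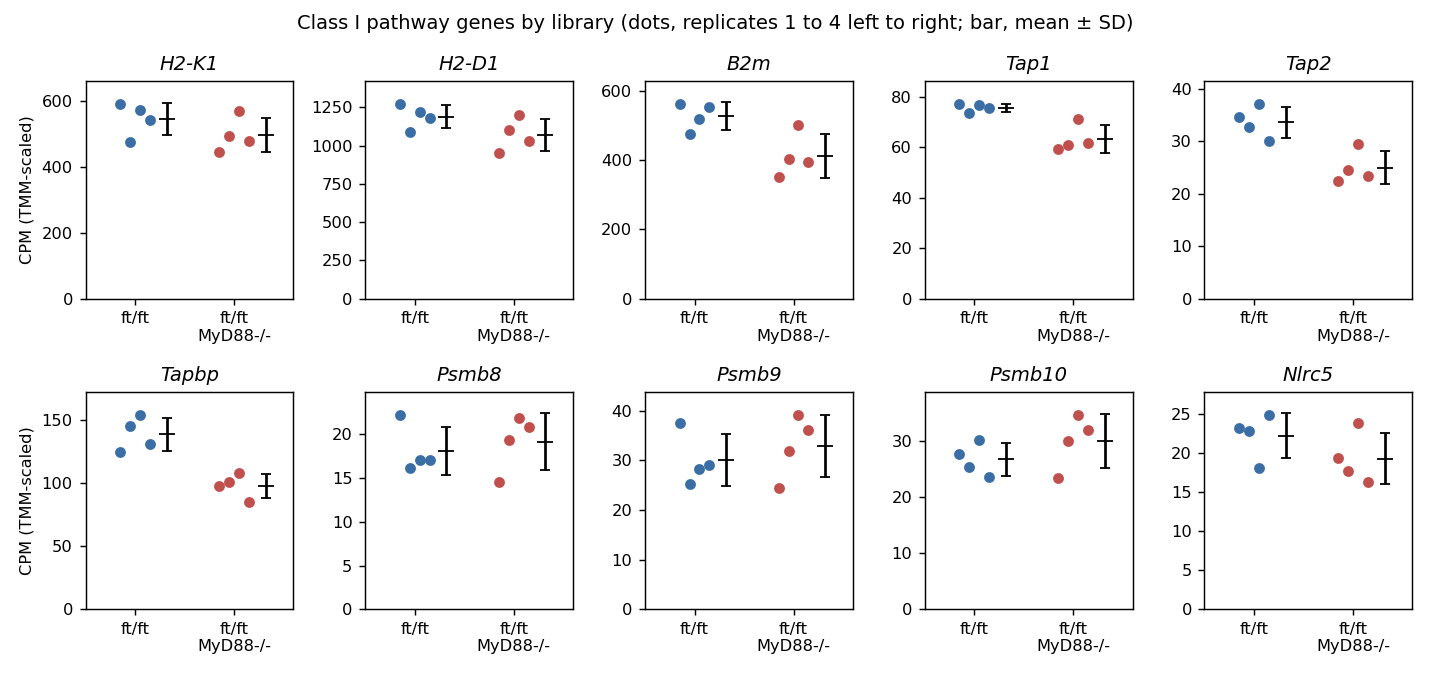
Level of each of the 10 genes in CPM (linear axes from 0) in the 4 libraries labelled ft/ft (blue) and the 4 labelled ft/ftMyD88-/- (red), with the mean ± SD beside each group. For *Tap1*, *Tap2* and *Tapbp* all 4 ft/ftMyD88-/- libraries lie below all 4 ft/ft libraries, while for the other 7 genes the groups overlap.

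Tapasin showed the largest difference among the members. *Tapbp* stood at 125, 145, 154 and 131 CPM in ft/ft replicates 1 to 4 and at 97.5, 101, 108 and 85.4 CPM in ft/ftMyD88-/-. Every ft/ftMyD88-/- library was below every ft/ft library. The fold was 0.706 (log2 fold change −0.50, SE 0.0984, adjusted p = 0.00374), and it passed the test under all 16 alternative settings, with adjusted p-values from 8.8e-05 to 0.0363. Exons of *Tapbp* overlap those of the antisense gene *Gm19412* on the other strand over 904 bases, 24.9% of its exon length, and those of *Zbtb22* on the same strand over 149 bases. The library kit named in the paper's methods does not mark strand, so with that kit reads in the shared bases cannot be assigned. Those shared with *Zbtb22* cannot be assigned whichever kit was used.

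The transporter subunits were both lower. *Tap2* had 34.5, 32.7, 37 and 30.1 CPM in ft/ft and 22.4, 24.5, 29.4 and 23.4 CPM in ft/ftMyD88-/-, a fold of 0.743 (log2 fold change −0.43, SE 0.108, adjusted p = 0.0138). *Tap1* had 76.9, 73.5, 76.6 and 75.3 CPM in ft/ft and 59.2, 60.9, 71.1 and 61.6 CPM in ft/ftMyD88-/-, a fold of 0.836 (log2 fold change −0.26, SE 0.0819, adjusted p = 0.0395). Neither gene overlapped between the groups. For *Tap1* the ft/ft libraries were close together (SD 1.54 CPM, n = 4), and ft/ftMyD88-/- replicate 3 was the highest of its group for both genes. Together with *Tapbp* these were 3 members whose libraries were all lower in ft/ftMyD88-/-, where 14.2% of all genes tested showed that pattern.

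The call of *Tap1* did not hold when libraries were left out, and that of *Tap2* did. Without ft/ft replicate 1, 2, 3 or 4, the adjusted p of *Tap1* was 0.0687, 0.0507, 0.0846 and 0.0899. Without ft/ftMyD88-/- replicate 1, 2 or 4 it was 0.0932, 0.0932 and 0.0861, and without replicate 3 it was 0.0189. Its log2 fold change stayed between −0.31 and −0.22 in these fits. For *Tap2* the largest adjusted p over the same 8 fits was 0.0466. When libraries were scaled by their totals alone, *Tap2* (−0.25, adjusted p = 0.117) and *Tap1* (−0.08, adjusted p = 0.521) were not called. That scaling moved the median of all genes from 0.01 to 0.19, and the median of the members stood 0.19 below the median of all genes under either scaling.

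Beta-2 microglobulin, the invariant light chain, was lower, while the heavy chains were not called. *B2m* stood at 561, 474, 520 and 554 CPM in ft/ft and at 350, 404, 501 and 395 CPM in ft/ftMyD88-/-, a fold of 0.783 (log2 fold change −0.35, SE 0.115, adjusted p = 0.0438). The groups overlapped, since ft/ftMyD88-/- replicate 3 was above ft/ft replicate 2. The call was lost without ft/ft replicate 1, 3 or 4 (adjusted p = 0.0961, 0.0837 and 0.113) and without ft/ftMyD88-/- replicate 1, 2 or 4 (0.105, 0.0835 and 0.0928). Scaling by library size alone gave −0.17 (adjusted p = 0.299).

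*H2-D1*, the most abundant member by counts, had 1270, 1090, 1220 and 1180 CPM in ft/ft and 951, 1100, 1200 and 1030 CPM in ft/ftMyD88-/- (log2 fold change −0.15, 95% interval −0.35 to 0.05, adjusted p = 0.306). *H2-K1* had 591, 478, 573 and 543 CPM in ft/ft and 447, 494, 570 and 481 CPM in ft/ftMyD88-/- (−0.13, interval −0.34 to 0.07, adjusted p = 0.389). The groups overlapped for both genes, and both values turned to slightly above 0 when libraries were scaled by size alone (0.03 and 0.05). Class I heavy chain genes are near-identical copies over long stretches, and the counting could have placed a read on one or another of them. The 18 heavy chain genes of the table were therefore also summed per library, a check added after the data were seen. The sum was 2330 ± 175 CPM in ft/ft and 2050 ± 220 CPM in ft/ftMyD88-/- (SD, n = 4), of which *H2-K1* and *H2-D1* made up 75.3%. It differed by −0.19 on the log2 scale (two-sided exact permutation test, p = 0.114), less than the spread between libraries could separate.

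The immunoproteasome subunits were the members with values above 0. *Psmb8*, the chymotrypsin-like subunit, had 22.2, 16.1, 17.1 and 17.1 CPM in ft/ft and 14.5, 19.4, 21.9 and 20.8 CPM in ft/ftMyD88-/- (log2 fold change 0.08, interval −0.20 to 0.37, adjusted p = 0.723). *Psmb9* had 37.5, 25.2, 28.2 and 29.1 CPM in ft/ft and 24.5, 31.9, 39.1 and 36 CPM in ft/ftMyD88-/- (0.13, interval −0.17 to 0.43, adjusted p = 0.583). *Psmb10* had 27.8, 25.4, 30.3 and 23.6 CPM in ft/ft and 23.4, 30, 34.7 and 32 CPM in ft/ftMyD88-/- (0.17, interval −0.08 to 0.42, adjusted p = 0.37). In all 3 genes ft/ftMyD88-/- replicate 1 was the lowest of its group and lay below every ft/ft library, while replicate 3 was the highest and lay above all ft/ft libraries except, for *Psmb8*, ft/ft replicate 1. None of the 3 was called under any of the 16 alternatives. With 4 libraries a group, any value inside these intervals, 0 included, remains possible.

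*Nlrc5* had 23.2, 22.8, 18.1 and 24.9 CPM in ft/ft and 19.4, 17.7, 23.9 and 16.3 CPM in ft/ftMyD88-/- (log2 fold change −0.20, interval −0.47 to 0.07, adjusted p = 0.314). ft/ft replicate 3 and ft/ftMyD88-/- replicate 3 each lay in the range of the other group. The transactivator was thus not called in either direction, and its interval includes the fitted difference of *Tap1* and *B2m*.

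**Figure D2:**
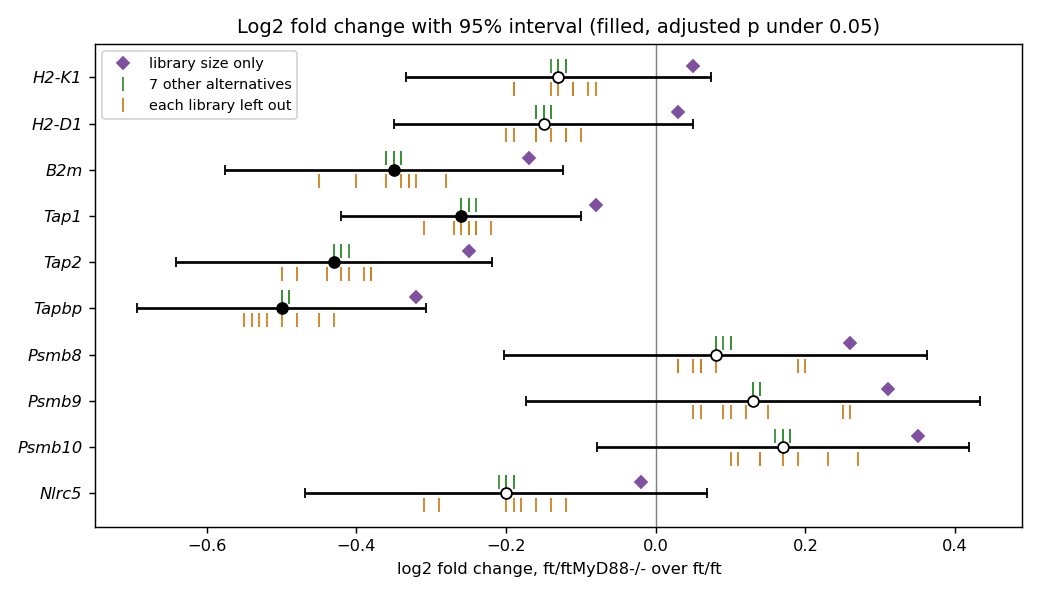
Log2 fold change of ft/ftMyD88-/- over ft/ft for the 10 genes (x axis), with bars for the 95% interval and filled circles for an adjusted p under 0.05. Ticks above each bar are 7 alternative settings, ticks below are fits without 1 library, and diamonds are scaling by library size only, which moves every gene to the right, so that *H2-K1* and *H2-D1* pass 0 (0.05 and 0.03), and leaves *Tapbp* at −0.32.

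Levels of different genes were compared per kilobase of annotated exon, since longer transcripts yield more reads. The length used was all bases covered by an exon of any annotated transcript of the gene. For *Psmb8* these were 3381 bases, more than its RefSeq coordinates span, so such lengths can exceed that of 1 transcript. The order of genes therefore depends on the annotation, and on reads coming from the whole length, which was not checked. On the scale of CPM per kilobase, *B2m* was the highest member in ft/ft at 613 ± 46.1 (SD, n = 4), followed by *H2-D1* at 461 ± 28.4 and *H2-K1* at 186 ± 16.9, and neighbours in this order were separated by more than their spread. In ft/ftMyD88-/- *B2m* was at 480 ± 74.1 and *H2-D1* at 414 ± 40.9 CPM per kilobase, whose ranges of 1 SD overlap. *Tapbp* came next at 38.3 ± 3.64 in ft/ft and 27 ± 2.59 in ft/ftMyD88-/-. *Psmb10*, *Tap1*, *Tap2*, *Psmb9* and *Psmb8* lay between 15.7 and 5.36 CPM per kilobase in ft/ft, where *Psmb10* (15.7 ± 1.71) and *Tap1* (13.8 ± 0.282), and *Tap2* (8.89 ± 0.765) and *Psmb9* (8.2 ± 1.45), did not differ beyond their spread. *Nlrc5* was the lowest at 2.62 ± 0.345 and 2.28 ± 0.389 CPM per kilobase. In ft/ftMyD88-/- *Psmb9* (8.98 ± 1.73) and *Tap2* (6.59 ± 0.825) again did not differ beyond their spread.

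A ratio of 2 genes within a library does not depend on how libraries are scaled, and 7 such ratios were compared by two-sided exact permutation tests, which cannot give a p below 0.0286 with 4 libraries a group. Heavy chain per light chain was higher in ft/ftMyD88-/- in every library. The log2 ratio of *H2-K1* to *B2m* counts was 0.08, 0.01, 0.14 and −0.03 in ft/ft and 0.35, 0.29, 0.19 and 0.28 in ft/ftMyD88-/-, a difference of 0.23 (exact p = 0.0286, adjusted over the 7 ratios 0.0667). That of *H2-D1* to *B2m* was 1.17, 1.2, 1.23 and 1.09 against 1.44, 1.45, 1.26 and 1.37, a difference of 0.21 (exact p = 0.0286, adjusted 0.0667). The groups did not overlap in either ratio, and both p-values are the smallest the design allows. Both ratios share *B2m*, and reads of the heavy chains may be shared, so the ratios are not independent results. Of all single genes tested, 26.7% did not overlap between the groups, and no such share was computed for ratios of other gene pairs. Neither passes 0.05 after adjustment, but with that floor an adjusted p under 0.05 required most of the 7 ratios to reach it. The adjusted values therefore cannot decide on any 1 ratio. Leaving out any 1 library kept the differences between 0.20 and 0.26 for *H2-K1* and between 0.18 and 0.25 for *H2-D1*. The ratio of *Tap1* to *Tap2* differed by 0.17 (exact p = 0.0857, adjusted 0.15), with overlap.

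The exchange of catalytic subunits gave the largest ratio difference. For *Psmb8* over *Psmb5*, the immune and the constitutive form of one subunit, the log2 ratio was −0.71, −0.71, −0.78 and −0.77 in ft/ft and −2.28, −2.09, −1.67 and −1.95 in ft/ftMyD88-/-. The ratio was 0.419 times as high in ft/ftMyD88-/- (difference −1.25, exact p = 0.0286, adjusted 0.0667), and the groups did not overlap. Of the pair, *Psmb8* was not called, and *Psmb5* stood at 36.2, 26.4, 29.5 and 29.2 CPM in ft/ft and at 70.9, 83, 69.8 and 80.2 CPM in ft/ftMyD88-/- (log2 fold change 1.33, SE 0.108, adjusted p = 1.99e-05), with no overlap. The other pairs of immune and constitutive subunits did not follow. *Psmb9* over *Psmb6* differed by −0.02 (exact p = 0.914) and *Psmb10* over *Psmb7* by 0.15 (exact p = 0.429, adjusted 0.5), both with overlapping groups. *Psmb8* over *Psmb9*, 2 subunits of the same particle encoded in the MHC region, differed by −0.05 (exact p = 0.286, adjusted 0.4) and ran between −0.83 and −0.65 over all 8 libraries.

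**Figure D3:**
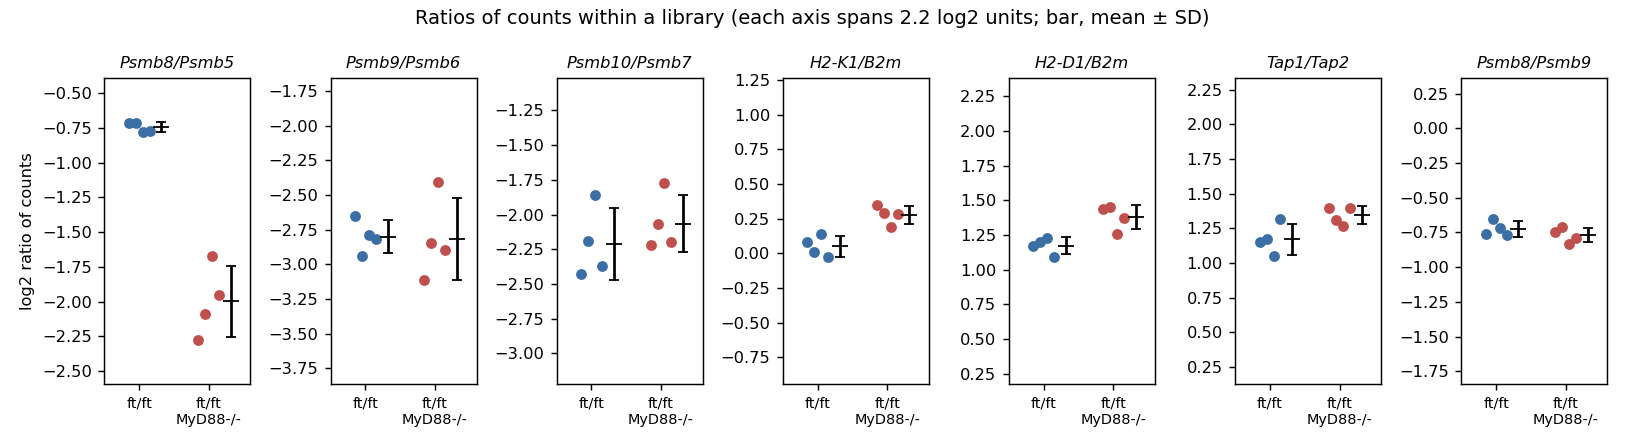
Log2 ratio of the counts of 2 genes in the same library (y axes, each spanning the same log2 range) for the 7 pairs, with 1 dot per library and the mean ± SD. The groups separate for *Psmb8*/*Psmb5* (means −0.74 and −2.0), *H2-K1*/*B2m* (0.05 and 0.28) and *H2-D1*/*B2m* (1.17 and 1.38), and overlap in the other 4. Both heavy chain ratios share *B2m*, and no share of separating ratios was computed for other gene pairs.

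Within the groups the members varied together from library to library. After each gene's log2 CPM was centred on its group mean, 42 of the 45 pairs of members had a positive Pearson correlation over the 8 libraries, with a median of 0.69. These points share library and scaling, and the values are given as a description. No such share was computed for pairs of other genes, so the values cannot be called particular to the members. The highest was between *Psmb8* and *Psmb9* (0.99), followed by *H2-K1* with *H2-D1* (0.96), whose reads may be shared. *B2m* ran with *H2-K1* (0.91), *H2-D1* (0.92) and *Tap1* (0.92). *Tapbp* had its highest value with *Tap2* (0.62) and its lowest, the lowest of all pairs, with *Psmb9* (−0.29), while *Nlrc5* reached 0.54 with *B2m* and *Tap1* and −0.16 with *Psmb10*. The mean deviation of the 10 members was highest in ft/ftMyD88-/- replicate 3 (0.23 on the log2 scale) and lowest in ft/ftMyD88-/- replicate 1 (−0.19), while the ft/ft libraries lay between −0.09 and 0.10.

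The genes whose centred levels were most like the mean of the members, among 13498 genes with a mean of at least 50 counts, were *RP23-108F2.19* (Pearson r 0.99), *Zbtb14* (0.97), *P2ry1* (0.97), *Efcab2* (0.97) and *Fam171b* (0.97), each over 8 libraries. With so many genes and 8 libraries, values of this size are a ranking and no more.

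Of 27 other class I and class I-like genes, 22 were in the table and tested, of which 4 were lower and 2 higher in ft/ftMyD88-/-, with a median log2 fold change of −0.11. For this list and those below, the shares over all genes tested were 12.3% lower and 10.9% higher. *Mr1*, which presents microbial vitamin B metabolites to MAIT cells, had 31.4, 33.3, 27.9 and 32.1 CPM in ft/ft and 18.9, 18.5, 19.9 and 19.4 CPM in ft/ftMyD88-/- (log2 fold change −0.70, adjusted p = 0.000347). *H2-T23*, the mouse Qa-1 molecule that presents leader peptides of classical class I chains to CD94/NKG2A, was at 236 ± 19.3 against 182 ± 22.9 CPM (−0.38, adjusted p = 0.0211). *H2-T22* (−0.44, adjusted p = 0.0247) and *H2-T10* (−0.67, adjusted p = 0.0104), which are bound by a subset of gamma delta T cells, were the other genes called lower. *Cd1d1*, which presents lipids to NKT cells, was higher (11.8 ± 2.13 against 19 ± 3.9 CPM, 0.68, adjusted p = 0.0105), as was *Procr*, the endothelial protein C receptor with a class I-like fold (7.35 ± 2.34 against 24.1 ± 12.1 CPM, 1.70, adjusted p = 0.0207). The calls of *Mr1*, *H2-T10* and *Cd1d1* held in all 8 fits without 1 library, those of *H2-T23* and *Procr* in 4 and that of *H2-T22* in 3. The nonclassical genes *H2-Q4*, *H2-Q6* and *H2-M3* were among the 16 not called.

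Of 16 partners in peptide supply and loading, 3 were lower and 1 higher, beside 12.3% and 10.9% of all genes tested, with a median of −0.07. *Tapbpl*, the tapasin-related peptide editor, was lower (72.9 ± 3.8 against 54.6 ± 4.92 CPM, −0.42, adjusted p = 0.00538) and held without any 1 library. *Psme1*, a subunit of the PA28 proteasome activator (−0.24, adjusted p = 0.0464, held in 1 of 8 such fits), and *Ganab*, a glucosidase that trims glycans of new glycoproteins (−0.30, adjusted p = 0.0351, held in 3), were also lower. *Hspa5*, the chaperone BiP, was higher (0.28, adjusted p = 0.0389, held in 2). The lectin chaperones and their partner, *Calr* (−0.12), *Canx* (0.01) and *Pdia3* (0.10), and the trimming peptidase *Erap1* (−0.24, adjusted p = 0.0504) were not called. Among 14 genes of the constitutive proteasome 2 were higher and 0 lower, with a median of 0.16. These were *Psmb5* and *Psma7*, a structural alpha subunit (251 ± 25.7 against 364 ± 83.2 CPM, 0.54, adjusted p = 0.0182, held in 6 of 8 such fits), while *Psmb6* (0.15, adjusted p = 0.347) and *Psmb7* (0.01, adjusted p = 0.966) were not called.

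Regulators of class I transcription went both ways, with 3 higher and 4 lower among 25 tested and a median of 0.04. These shares were near those over all genes tested, 10.9% higher and 12.3% lower. *Irf8*, a transcription factor of myeloid cells, was at 15.1 ± 1.95 against 27.6 ± 3.58 CPM (0.87, adjusted p = 0.000704), *Socs1*, an inhibitor of JAK signalling, at 5.02 ± 0.903 against 8.63 ± 0.987 CPM (0.79, adjusted p = 0.00396) and *Ciita*, the class II transactivator, at 11.4 ± 1.86 against 16.5 ± 3.62 CPM (0.54, adjusted p = 0.0412). *Rela* (−0.32, adjusted p = 0.0122), *Jak1* (−0.32, adjusted p = 0.0261), *Irf2* (−0.27, adjusted p = 0.0373) and *Irf9* (−0.43, adjusted p = 0.0355) were lower. Calls of *Irf8*, *Socs1* and *Rela* held without any 1 library, those of *Jak1* and *Irf9* in 3 of the 8 such fits and those of *Irf2* and *Ciita* in 2. *Irf1* (−0.20, adjusted p = 0.174), a transcription factor induced by interferon gamma, was not called. *Ifng* was too low to test, at 0 counts in every ft/ft library and at 1, 1, 1 and 0 in those labelled ft/ftMyD88-/-.

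Class II genes and other neighbours of the members in the MHC region gave 1 higher and 3 lower among 19 tested, with a median of 0.03. Over all genes tested, the shares were 10.9% higher and 12.3% lower. *Cd74*, the invariant chain, was lower (492 ± 67.4 against 353 ± 58.9 CPM, −0.48, adjusted p = 0.0217), as were *Bag6* (−0.30, adjusted p = 0.0333) and *Vps52* (−0.31, adjusted p = 0.0251). *Brd2*, a bromodomain gene of the class II segment, was higher (137 ± 12.6 against 219 ± 16.2 CPM, 0.68, adjusted p = 0.000522) and held without any 1 library, whereas *Cd74* held in 5 of 8 such fits, *Vps52* in 3 and *Bag6* in 2. *H2-Ea-ps*, the class II alpha chain gene that the C57BL/6 haplotype does not transcribe, was read at 205 to 347 CPM in all 8 libraries (0.22, adjusted p = 0.301).

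**Figure D4:**
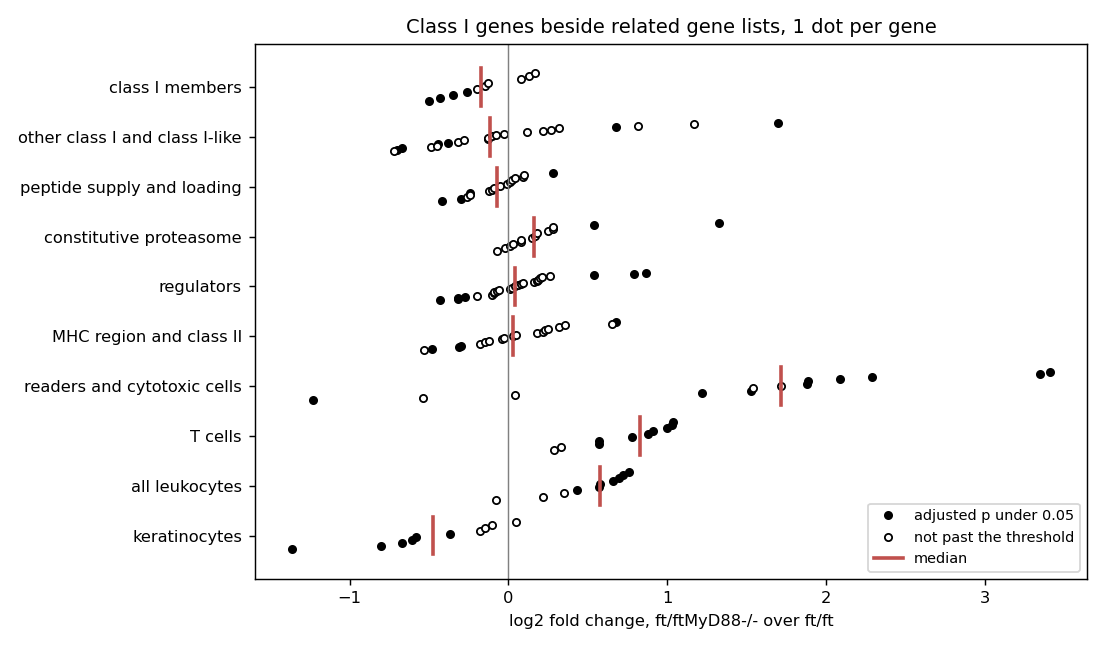
Log2 fold change of ft/ftMyD88-/- over ft/ft (x axis) for each tested gene of the class I members and of 9 related lists (rows), with filled dots for an adjusted p under 0.05 and a bar at each list's median. The members span −0.50 to 0.17 with a median of −0.18, whereas T cell markers have a median of 0.83 and keratinocyte markers one of −0.47.

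Genes of the cells that read class I, CD8+ T cells and natural killer cells, were low in all libraries, and 8 of 13 were higher and 1 lower in ft/ftMyD88-/-. *Cd8a*, the coreceptor for class I, was read 3, 5, 1 and 0 times in ft/ft and 17, 34, 27 and 22 times in ft/ftMyD88-/- (log2 fold change 3.41, adjusted p = 0.000971). *Klrc1*, the NKG2A receptor for Qa-1, was at least 4.57-fold higher and *Cd8b1* at least 2.51-fold higher, against a floor of 3 counts in each ft/ft library. *Gzma* (1.89, adjusted p = 0.00706), *Gzmb* (2.09, adjusted p = 0.0282) and *Klrd1* (1.88, adjusted p = 0.00311) were higher, while *Prf1*, which encodes perforin, was lower (2.46 ± 0.68 against 1.02 ± 0.491 CPM, −1.23, adjusted p = 0.0173) and *Nkg7* was not called (0.04). Calls of *Cd8a*, *Klrc1*, *Gzma* and *Klrd1* held without any 1 library, that of *Prf1* in 6 of 8 such fits and that of *Gzmb* in 5. The summed level of this list was 5.64 to 9.54 CPM in ft/ft and 7.41 to 14.4 CPM in ft/ftMyD88-/-, which overlap. The list's median was 1.72, or 1.33 with 4 genes at the bounds that the floor allows.

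Markers of the cell types that carry class I differed between the groups in both directions. Of 10 keratinocyte markers 6 were lower and 0 higher (summed level 31400 to 39300 CPM in ft/ft and 24200 to 27400 in ft/ftMyD88-/-), of 8 fibroblast markers 4 were lower and 1 higher (14100 to 29300 against 7060 to 10500 CPM), and of 10 endothelial markers 3 were lower and 1 higher (319 to 389 against 242 to 323 CPM). Skeletal muscle markers, which come with periocular tissue, were lower in 16 of 20 (14300 to 19100 against 5540 to 10400 CPM). Markers of all leukocytes were higher in 7 of 10 and lower in 0 (214 to 272 against 271 to 363 CPM), those of T cells in 8 of 10 (31.6 to 39.7 against 47.1 to 63.8 CPM) and those of macrophages and monocytes in 3 of 11 (629 to 833 against 864 to 1180 CPM). Without *Lyz2*, a sum added after the data were seen, the macrophage and monocyte markers overlapped between the groups (387 to 565 against 463 to 715 CPM), and *Adgre1*, *Csf1r* and *Cd68* were among the 8 not called. No defining marker of keratinocytes or fibroblasts was at 0. The summed level of the 10 members was 2390 to 2770 CPM in ft/ft and 2010 to 2600 CPM in ft/ftMyD88-/-. The part of cell composition in the lower *Tapbp*, *Tap1*, *Tap2* and *B2m* was not tested.

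Neighbouring exons touch other members too. In the RefSeq coordinates given above *Tap1* and *Psmb9* share no base, but in GENCODE M21, whose models reach further, 212 bases of their exons overlap on opposite strands. *Tap2* shares 533 bases (14.1% of its exon length) with *Gm15821*, and *Psmb8* 498 bases (14.7%) with *Gm20496*, both on the opposite strand. With a kit that does not mark strand, reads there cannot be assigned either.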

How the data were processed

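Gene counts of periocular skin were deposited by the authors without normalization. The paper's methods give snap-frozen biopsies, polyA-selected TruSeq libraries, HISAT and TopHat2 alignment to GRCm38.p6 and HTSeq counting at default settings, whereas the labels give these 8 samples as total RNA, with a protocol for fixed tissue and Cell Ranger as the tool, and which of these made the counts was not settled here. Aligner versions and annotation release are not given in the sources used here. HTSeq by default counts reads on the annotated strand only, whereas the TruSeq kit named does not mark strand. A change of protocol between groups cannot be seen in the labels, which give both groups the same text.

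Columns were matched to samples by the names in the labels, and the replicate libraries of a group differed by more than sampling noise. Genes with at least 10 counts over 8 libraries (20454) were tested with edgeR 4.0.16 in R 4.3.3 (TMM, robust quasi-likelihood, no covariate, two-sided, Benjamini-Hochberg threshold 0.05). Intervals are 95% intervals from the standard error of the fitted log2 fold change. Ratios used counts plus 0.5. Exon lengths and overlaps came from GENCODE M21, promoters from RefSeq of GRCm38.p6. On simulated counts for this comparison, with 200 of 20454 genes changed 2-fold, the test called 114 of the 197 changed genes it tested and 9 unchanged ones. In the data 23.3% of genes were called and every member differed by less than 2-fold, so this rate does not apply to the members. The floor of 3 counts was 0.102 to 0.183 CPM and covers counting error only. Whether reads carried molecular identifiers was not settled.

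Alternatives were DESeq2 1.42.0, RLE scaling, library size only, removal of muscle and mitochondrial genes, filterByExpr, no filter, limma 3.58.1 voom, a replicate block, fits without each library in turn, an adjusted p under 0.01, and a minimum change of 1 on the log2 scale. The 10 members, the gene lists, the ratios and these tests were chosen with earlier results of these data known. The genes named are all members, list genes with the largest called differences or on which a result turns, and the 5 genes most like the members' mean. Of the class I-like list, *H2-Q8*, *H2-Q9*, *H2-T9*, *H2-L* and *Azgp1* were not analysed here.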

Additional observations from a re-analysis of the deposited data

Results flagged for a closer look

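Among 116 groups of 4 libraries (the members, the 7 ratios and the other genes given with values, in each genotype), 4 held a library whose gap to its nearest neighbour took up more of the group's range than Dixon's critical value allows, and chance gives about 1 in 20 groups. None of the 4 was a member. *Psma7* in ft/ft was highest in replicate 1 at 289 CPM, with the others at 240, 235 and 240 (gap over range 0.904). *Procr* in ft/ft was highest in replicate 4 at 10.8 CPM, with the others at 6.43, 6.47 and 5.69 (0.847). *Socs1* in ft/ft was highest in replicate 3 at 6.36 CPM, with the others at 4.76, 4.44 and 4.52 (0.833). *Cd8b1* in ft/ft was highest in replicate 3 at 3 counts, with the others at 1 (0.95 of the range in CPM). In CPM the 4 libraries labelled ft/ftMyD88-/- were all above that library in each case, but for *Cd8b1* ft/ftMyD88-/- replicate 4 also had 3 counts.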

How the results depend on the processing

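Of the members' calls, *Tapbp* passed under all 16 settings, *Tap2* under all but library size only, *B2m* failed in 8 and *Tap1* in 9. *H2-K1* and *H2-D1* changed sign with library size only and were never called. The 4 members called lower became 1 with library size only, 2 with the replicate block, 1 at an adjusted p under 0.01, 0 where a change of 1 on the log2 scale was required, and 2 to 4 without 1 library. Library size only also moved the members' median to 0 and the share of higher calls over all genes from 47% to 77.8% (4638 higher, 1326 lower). In that setting the lists had, higher and lower, 4 and 2 (class I-like), 2 and 0 (peptide supply), 9 higher (proteasome), 9 and 0 (regulators), 5 and 0 (MHC region) and 0 lower (endothelium). An adjusted p under 0.01 gave 0 and 1 (class I-like), 0 and 1 (peptide supply), 1 higher (proteasome), 0 lower (regulators), 0 lower (MHC region), 4 and 0 (readers), 4 higher (leukocytes), 2 higher (T cells), 0 and 1 (endothelium) and 0 higher (fibroblasts), fewer because the threshold is stricter. DESeq2 gave 5 lower for peptide supply and 2 higher for the MHC region, and filterByExpr gave 5 lower for peptide supply and 4 higher for the readers, some of which it did not test. Without 1 library the lists ranged, higher and lower, over 1 to 2 and 2 to 5 (class I-like), 0 to 1 and 1 to 3 (peptide supply), 1 to 3 higher (proteasome), 1 to 4 lower (regulators), 1 to 2 and 0 to 3 (MHC region), 4 to 8 and 0 to 2 (readers), 5 to 8 higher (T cells), 0 to 1 lower (macrophages), 0 to 1 higher (endothelium) and 0 to 1 higher (fibroblasts). Except where stated, the cause was not tested.

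No pairing of the libraries by replicate number was seen. Same-numbered libraries of the 2 groups correlated at −0.35, 0.04, 0.07 and −0.03 in their deviations over 13508 genes. Of the 4, 1 correlated best with its own number. Such values from 4 libraries a group cannot exclude a weak pairing. With the replicate block, *B2m* (adjusted p = 0.0679) and *Tap1* (0.0815) were not called, and the lists gave 0 higher and 1 lower (peptide supply), 1 lower (MHC region) and 0 higher (endothelium). With 4 libraries a group, differences of about the size of *H2-D1* (−0.15, SE 0.102) could not be separated from 0.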
